A study of Mus musculus with 6 samples.

Results

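The genes described here build dendrites and steer axons: 36 listed semaphorins, plexins, neuropilins, slits, robos, netrin and ephrin pathway genes, Dscam genes, calcium-dependent regulators of dendrite growth, cytoskeletal proteins and other effectors. They were chosen by name, through the symbols of the platform annotation, and measured with the array's own probes. A total of 104 probes carried the symbols of 34 of these genes, and 51 probes of 27 genes gave a signal above background (detection p under 0.05) on at least 3 of 6 arrays and were tested, of 19515 tested probes of 10764 named genes in all. Ntn1 and Ephb2 were not analysed here. Sema3c, Plxna1, Plxna3, Plxna4, Dscaml1 and Slit1, with 1 probe each except 2 for Sema3c, were not above background on any array. A signal not above background is a bound on these probes and does not show that a gene is silent. Of the 51 tested probes, 40 were above background on all 6 arrays.

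Total RNA came from the cerebellum of male mice of a Black Swiss X CD1 background at postnatal day 21: 3 mice of genotype Sp4neo-/-, called Sp4 hypomorphs, and 3 WT mice. The design describes 3 littermate pairs. Sp4 is a zinc-finger transcription factor that binds GC boxes, and the labels do not say how much Sp4 the allele leaves or in which cells. Each sample was read on 1 Illumina bead array, so the precision of the values is limited by having 3 arrays in each group.

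Semaphorins are secreted or membrane-bound cues that act through plexins, with neuropilins as co-receptors for the secreted class 3 members. Slits act through robos, netrin through Dcc and Unc5 receptors, and ephrins through Eph receptors, and many of these signals end on the growth of actin and microtubules. In the cerebellum such cues are known to guide the migration of granule cells and the shape of their dendrites, and loss of Sp4 is known to alter the dendrites of granule cells. The comparison asks how the transcripts of these cues, receptors and effectors differ between hypomorph and wild-type cerebellum.

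Sp4 itself checks the labels. Probe ILMN_1259753 read 5.99, 5.80 and 6.32 on hypomorph arrays 1 to 3, against 7.82, 6.86 and 7.35 on wild-type arrays 1 to 3. Every value here and below is a normalised log2 intensity unless it is called a difference, and all differences are hypomorph minus wild type on that scale. The Sp4 difference was -1.30 with an SE of 0.26, and it did not pass limma's test (adjusted p = 0.355). On probe ILMN_1253376 the 3 hypomorph arrays stayed at background, and Sp4 was at least 1.5-fold lower than in wild type, with measured means of 5.07 in hypomorphs and 6.26 in wild type (adjusted p = 0.354). A probe at background has only an upper bound, so that fold takes, per hypomorph array, the dimmest signal called above background wherever the probe itself was dimmer.

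No probe of these genes passed the adjusted threshold of 0.05, and over all tested probes the share that passed was 0%. The lowest adjusted p among the 51 probes was 0.755, for Map2. Unadjusted p-values under 0.05 came from 8 probes, or 15.7%, against 5.31% of all tested probes; 5 had higher values in the hypomorph, against 2.49% of all probes, and 3 had lower values, against 2.82%. The 8 probes read 6 genes, Sema3f, Sema4d, Sema5a, Dscam, Map2 and Dpysl2, and probes of a gene share their transcript, so they are not separate evidence. When each gene was read by its tested probe with the highest mean, the count was 2 of 27 genes (Sema3f and Sema4d), or 7.41%, against 5.23% of all tested genes. The count of 8 moved in both directions with other processing. It was 4 with the authors' processed values (5.03% of all probes) and 4 with an intensity trend and robust moderation (4.86%), and it was 10 with array weights, where the share of all probes was 11.9%. It was 3 without hypomorph 2 (4.51% of all probes), 1 without wild type 3 (4.08%), 4 without wild type 1 (4.8%) and 5 without wild type 2 (7.18%).

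**Figure D1:**
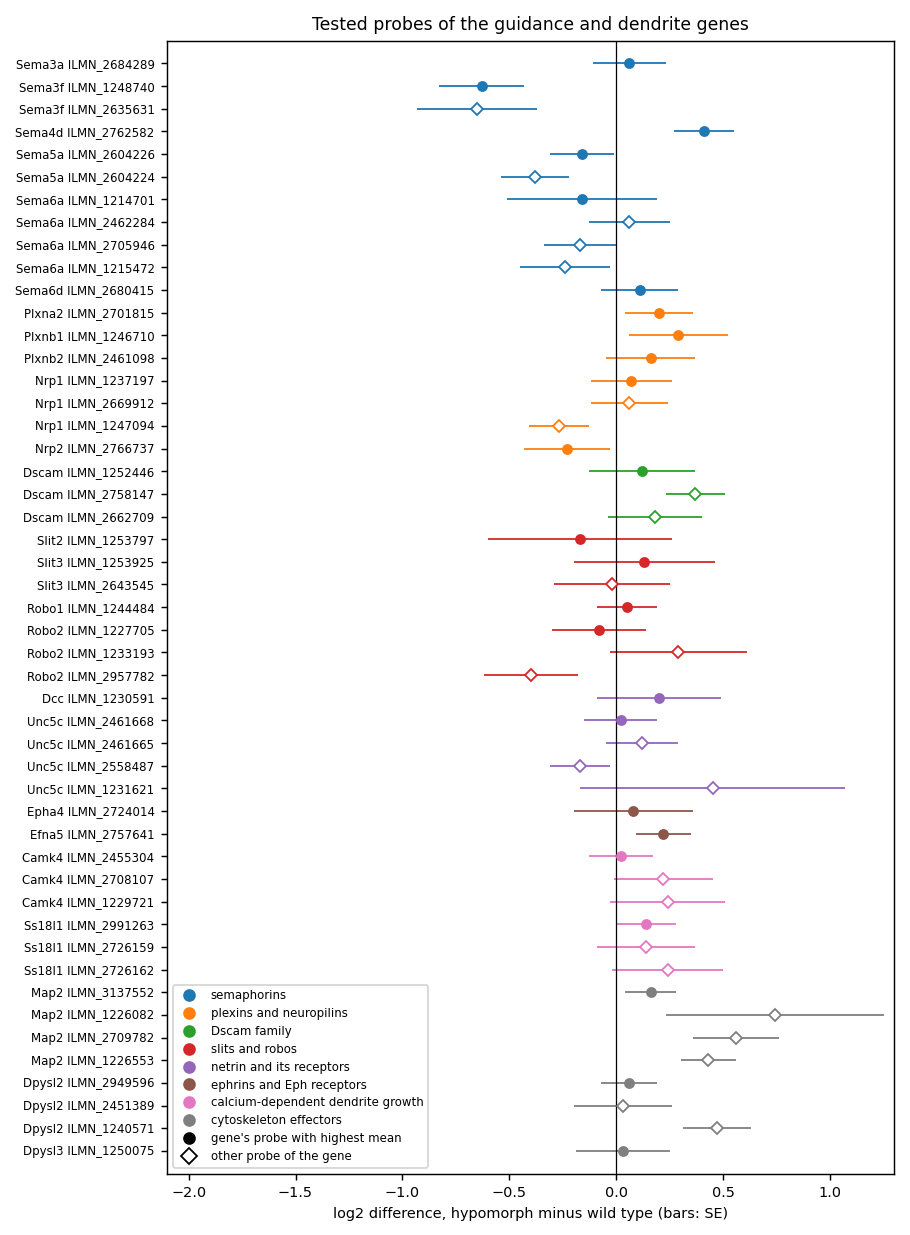
Difference between hypomorph and wild type (log2 intensity, horizontal axis) for 49 tested probes, coloured by family, with the SE of each difference as a bar; filled circles mark the gene's probe with the highest mean and open diamonds its other probes. Most probes lie within 0.5 of 0; the probes of Sema3f lie at -0.63 and -0.65 and those of Map2 between 0.16 and 0.74.

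Differences were small. Over the 51 probes, 36 had higher values in the hypomorph, or 70.6%, against 50.2% of all tested probes, and the median difference was 0.08. On the probe with the highest mean, 20 of 27 genes had higher and 7 lower values in the hypomorph, where 48.1% of all tested genes had higher values. With median scaling in place of quantile normalization the split was 14 higher of 27, or 51.9%, where 33.3% of all tested genes were higher. With array weights it was 16 of 27, or 59.3%, where 49% of all tested genes were higher. Median scaling moved the median over all tested genes to -0.08, so counts under it lean lower throughout. The median difference over the 27 genes was 0.07, against -0.01 over all tested genes. It ran from -0.01 (without hypomorph 3) to 0.11 (without wild type 2) with 1 array left out. Without hypomorph 3, 13 of the 27 genes had higher values, where the median over all tested genes was -0.01. After subtracting each gene's mean over 6 arrays, the median over the 27 genes was 0.01, -0.02 and 0.03 on hypomorph arrays 1 to 3. On wild-type arrays 1 to 3 it was -0.07, -0.02 and 0.06, so both the lowest and the highest array were wild type. The median size of the difference over the 27 genes was 0.14, against 0.12 over all tested genes. Of the 27 genes, 21 differed by less than 0.2, or 77.8%, against 69.4% of all tested genes. Over the 51 probes the order was the other way. Their median size was 0.17, against 0.13 over all tested probes, and 58.8% differed by less than 0.2, against 67.2%.

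**Figure D2:**
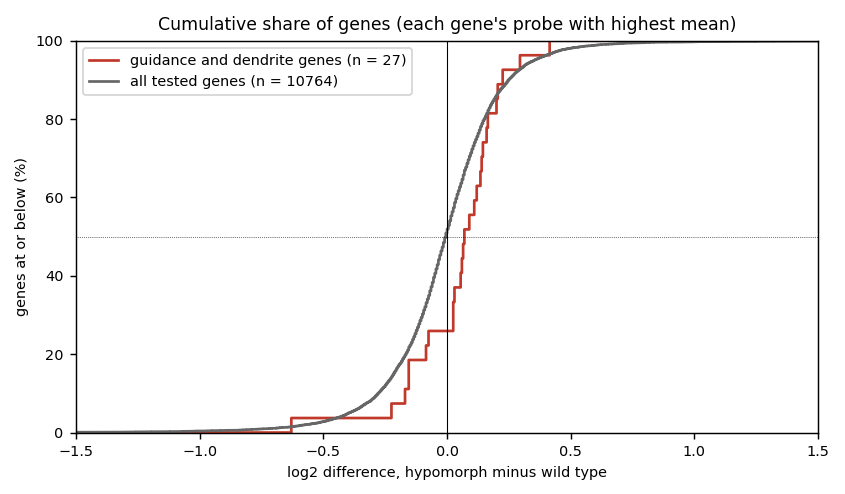
Cumulative share of genes (percent, vertical axis) at or below a given difference between hypomorph and wild type (log2, horizontal axis), for the 27 guidance and dendrite genes in red and all 10764 tested genes in grey. The red curve lies to the right of the grey one near 0, with medians of 0.07 and -0.01. With median scaling, 14 of the 27 genes are higher in the hypomorph, against 33.3% of all tested genes.

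GC boxes, the elements that Sp factors bind, were counted in the promoters of these genes. The windows are RefSeq's for build GRCm38.p6, from 250 bases before to 50 bases after each annotated start, and a box was counted where a window held GGGCGG or its reverse complement CCGCCC, overlapping matches included. Windows were found for 20 of the 27 measured genes, and 15 of the 20 had a box in at least 1 window, or 75%, against 68.9% of 8690 tested genes with a window. By window, a box was held by 61.5% of 26 windows of the measured genes, against 61.6% of 11255 windows of tested genes. Of all 32851 windows of that length, genes not tested included, 35.7% held a box. Of the genes with a probe under 0.05, 3 are shown because they differ in both respects: Sema5a (chr15:32244563-32244812, plus strand) had lower values in the hypomorph and 5 boxes. Map2 (chr1:66175079-66175328, plus strand) had higher values and 5 boxes, and Dscam (chr16:97170736-97170985, minus strand) had higher values and 0 boxes. The 250 bases upstream of the start are printed 5′ to 3′ on the gene's strand, with GC boxes in capitals.
Sema5a: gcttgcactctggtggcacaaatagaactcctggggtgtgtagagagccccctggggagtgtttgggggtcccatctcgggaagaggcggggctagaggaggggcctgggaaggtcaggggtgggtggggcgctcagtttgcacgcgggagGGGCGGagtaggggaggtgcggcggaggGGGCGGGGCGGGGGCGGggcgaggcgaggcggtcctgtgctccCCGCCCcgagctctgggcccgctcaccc
Map2: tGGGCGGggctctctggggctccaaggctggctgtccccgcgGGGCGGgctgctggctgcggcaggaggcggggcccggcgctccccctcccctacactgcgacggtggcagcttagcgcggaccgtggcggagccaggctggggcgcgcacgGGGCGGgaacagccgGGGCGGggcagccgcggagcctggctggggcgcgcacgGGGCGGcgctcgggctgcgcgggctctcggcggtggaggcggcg
Dscam: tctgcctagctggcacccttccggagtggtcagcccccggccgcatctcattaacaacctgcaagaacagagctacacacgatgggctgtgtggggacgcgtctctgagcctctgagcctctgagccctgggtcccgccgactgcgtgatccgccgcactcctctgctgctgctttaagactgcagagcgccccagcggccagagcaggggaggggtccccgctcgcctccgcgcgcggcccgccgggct
A match is a run of letters and not evidence of binding, and these arrays do not measure binding. Sema4d had 1 box in the first of its 3 windows. No promoter window was found for Sema3f or Dpysl2, so their boxes were not counted.

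Among the ligands, Sema3f and Sema4d differed in opposite directions. Sema3f encodes a secreted repellent that acts through neuropilin 2 and class A plexins. On probe ILMN_1248740 it read 7.02, 6.85 and 7.40 on the hypomorph arrays, against 7.49, 7.68 and 7.99 on the wild-type arrays. All 3 hypomorph values lay below all wild-type values, with hypomorph 3 closest to wild type 1. The difference was -0.63 (SE 0.20, 1.55-fold, unadjusted p 0.0143, adjusted p 0.773). The second probe, ILMN_2635631, read 6.51, 5.83 and 7.0 in hypomorphs, against 7.04, 7.16 and 7.10 in wild type. Its groups did not overlap either, but hypomorph 2 stood far below the others. The second difference was -0.65 (SE 0.28, adjusted p = 0.934), and it was -0.35 without hypomorph 2. With the authors' processed values the 2 differences were -0.36 and -0.29. Those values lie higher than the non-normalized ones, by medians of 140.6 to 142.8 units per array. A higher base shrinks log2 differences of dim probes, here and below. The last of its 3 probes stayed at background on all 6 arrays. In whole cerebellum, fewer cells of a type and less RNA per cell cannot be told apart.

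Sema4d, a membrane-bound ligand of plexin B1, read 6.94, 6.98 and 6.90 in hypomorphs, against 6.45, 6.74 and 6.40 in wild type. The groups did not overlap, and the hypomorph values lay within 0.1 of each other. Its difference was 0.41 (SE 0.14, 1.33-fold, adjusted p = 0.834), and 0.19 with the authors' processed values. Sema5a, a transmembrane semaphorin with thrombospondin repeats, had a pair of tested probes that disagreed in size. Probe ILMN_2604224 read 10.13, 9.77 and 10.06 in hypomorphs, against 10.44, 10.20 and 10.47 in wild type, with no overlap between groups. The difference on it was -0.38 (SE 0.16, adjusted p = 0.921). Probe ILMN_2604226 read 10.62, 10.42 and 10.25 in hypomorphs, against 10.68, 10.49 and 10.59 in wild type. There the groups overlapped, with hypomorph 1 among the wild-type values, and the difference was -0.16 (SE 0.15, adjusted p = 0.999).

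**Figure D3:**
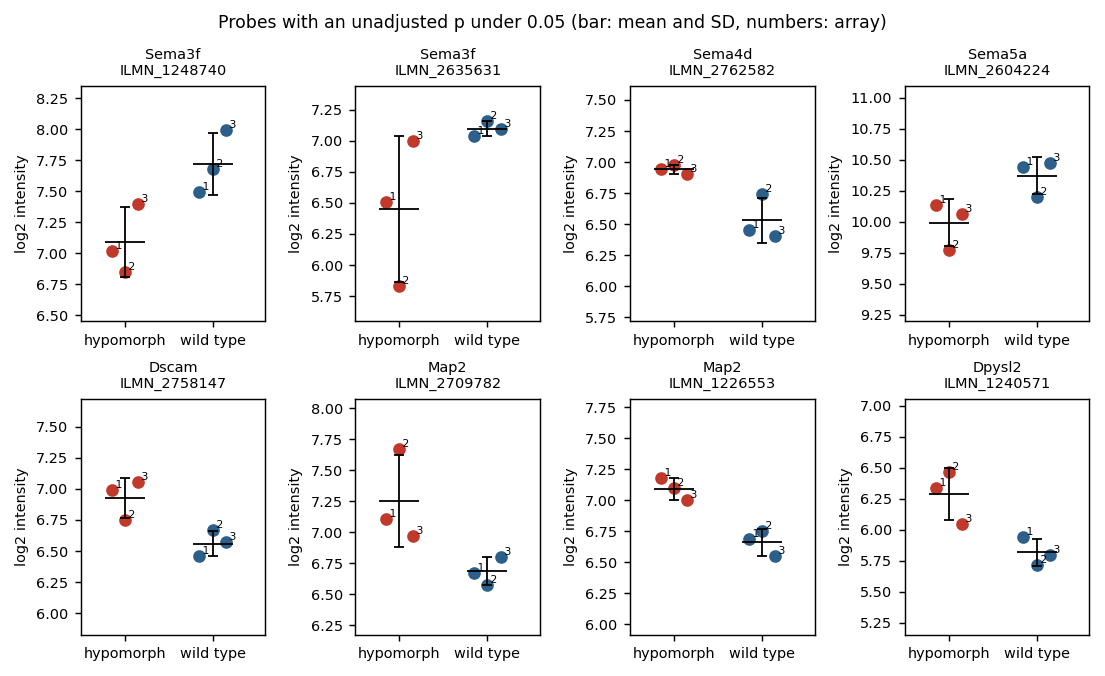
Normalised log2 intensity (vertical axis, every panel spanning 1.9 units) on single arrays for the 8 probes with an unadjusted p under 0.05, hypomorph in red on the left and wild type in blue on the right; numbers are array numbers and bars the mean and SD. The groups do not overlap on any of the 8 probes, which were chosen for their difference.

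The other semaphorins differed less. Sema3a, a repellent of axons and attractant of apical dendrites, differed by 0.06 (SE 0.17, 95% interval -0.33 to 0.45). Sema6d, a transmembrane semaphorin, differed by 0.11 (SE 0.18). Sema6a, which acts with plexin A2 in the migration of granule cells, was read by 4 tested probes with differences of -0.16, 0.06, -0.17 and -0.24. The first of these spread widely, with 7.39, 8.59 and 7.65 in hypomorphs, against 7.54, 8.44 and 8.12 in wild type, so that both arrays numbered 2 were the highest of their group. Of the 6 measured semaphorins 3 had higher and 3 lower values, or 2 higher with median scaling, under which Sema3a stood at -0.04.

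Among the receptors, no plexin or neuropilin probe had an unadjusted p under 0.05. Plxna2, the receptor of Sema6a on granule cells, read 9.54, 9.98 and 9.59 in hypomorphs, against 9.5, 9.48 and 9.52 in wild type. The groups did not overlap, as was the case for 11% of all tested genes, but hypomorphs 1 and 3 lay close to the wild-type values. The difference of 0.20 (SE 0.16, adjusted p = 0.999) was 0.06 without hypomorph 2. Plxnb2, a plexin of granule cell precursors, read 10.38, 10.58 and 10.74 in hypomorphs, against 10.10, 10.81 and 10.29 in wild type, with overlap. It differed by 0.16 (SE 0.21, 95% interval -0.33 to 0.66), and by 0.01 without wild type 1 and 0.37 without wild type 2. Plxnb1, the receptor of Sema4d, differed by 0.29 (SE 0.23), a value that was 0.10 without hypomorph 1 and 0.47 without hypomorph 2.

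Nrp1, the co-receptor of Sema3a, had 3 tested probes with differences of 0.07, 0.06 and -0.27. On the last the groups did not overlap, with 5.66, 5.64 and 5.77 in hypomorphs, against 5.80, 5.98 and 6.09 in wild type (SE 0.14, adjusted p = 0.985), and it was above background on 2 hypomorph and 3 wild-type arrays. Nrp2, the co-receptor of Sema3f, differed by -0.23 (SE 0.20) on a probe that was above background on 1 hypomorph and 3 wild-type arrays, and by -0.44 without hypomorph 1 and -0.11 without hypomorph 2. Of the 5 measured plexins and neuropilins 4 had higher values, or 3 with median scaling and with array weights, under which Nrp1 stood at -0.03 and -0.01.

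Dscam, a cell adhesion molecule through which sister dendrites avoid each other, had higher means in the hypomorph on all 3 tested probes. Probe ILMN_2758147 read 6.99, 6.75 and 7.06 in hypomorphs, against 6.46, 6.67 and 6.57 in wild type, with no overlap. Its difference was 0.37 (SE 0.14, 1.29-fold, adjusted p = 0.900), or 0.17 with the authors' processed values. The probe with the highest mean, ILMN_1252446, read 6.39, 7.18 and 7.35 in hypomorphs, against 6.95, 6.84 and 6.78 in wild type. Hypomorph 1 lay below every wild-type array there, and the difference of 0.12 (SE 0.25) turned to -0.07 without hypomorph 3. The remaining probe differed by 0.18 (SE 0.22).

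Slits and robos, repellents and their receptors, had no probe with an unadjusted p under 0.05. Robo1 read 9.29, 9.13 and 9.08 in hypomorphs, against 9.29, 9.08 and 8.98 in wild type. These values overlapped almost fully, and the difference was 0.05 (SE 0.14, 95% interval -0.28 to 0.39), or -0.05 with median scaling. The 3 tested probes of Robo2 disagreed in sign, with differences of -0.08, 0.29 and -0.40 and SEs between 0.22 and 0.32. Slit2 read 7.14, 6.34 and 6.86 in hypomorphs, against 7.72, 5.98 and 7.16 in wild type. Slit3 read 8.42, 8.43 and 8.93 in hypomorphs, against 7.72, 8.92 and 8.75 in wild type. Wild type 1 was thus the highest array for Slit2 and the lowest for Slit3, and wild type 2 was the lowest for Slit2. The difference of Slit2 was -0.17 (SE 0.43), and 0.21 without wild type 1. That of Slit3 was 0.13 (SE 0.33), and -0.24 without wild type 1.

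Of the netrin receptors, Unc5c, a repulsive netrin receptor whose loss is known to let granule cells cross the border of the cerebellum, read 11.24, 11.20 and 10.97 in hypomorphs, against 10.83, 11.30 and 11.21 in wild type. The groups overlapped, and the difference was 0.02 (SE 0.17, 95% interval -0.38 to 0.42), or -0.06 with median scaling and -0.07 with array weights. Its other tested probes differed by 0.12, -0.17 and 0.45, the last with an SE of 0.62. Dcc, the attractive netrin receptor, differed by 0.20 (SE 0.29) on a probe above background on 2 arrays of each group, and by -0.11 without hypomorph 3.

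Efna5, a membrane-anchored ephrin ligand, read 9.54, 9.56 and 9.40 in hypomorphs, against 9.37, 9.19 and 9.28 in wild type. The groups did not overlap, though hypomorph 3 and wild type 1 were close. Its difference was 0.22 (SE 0.13, 1.17-fold, adjusted p = 0.992), and it was 0.12 with median scaling and between 0.18 and 0.27 with any 1 array left out. Epha4, an Eph receptor, differed by 0.08 (SE 0.28), and by -0.21 without wild type 1 and -0.07 with array weights.

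**Figure D4:**
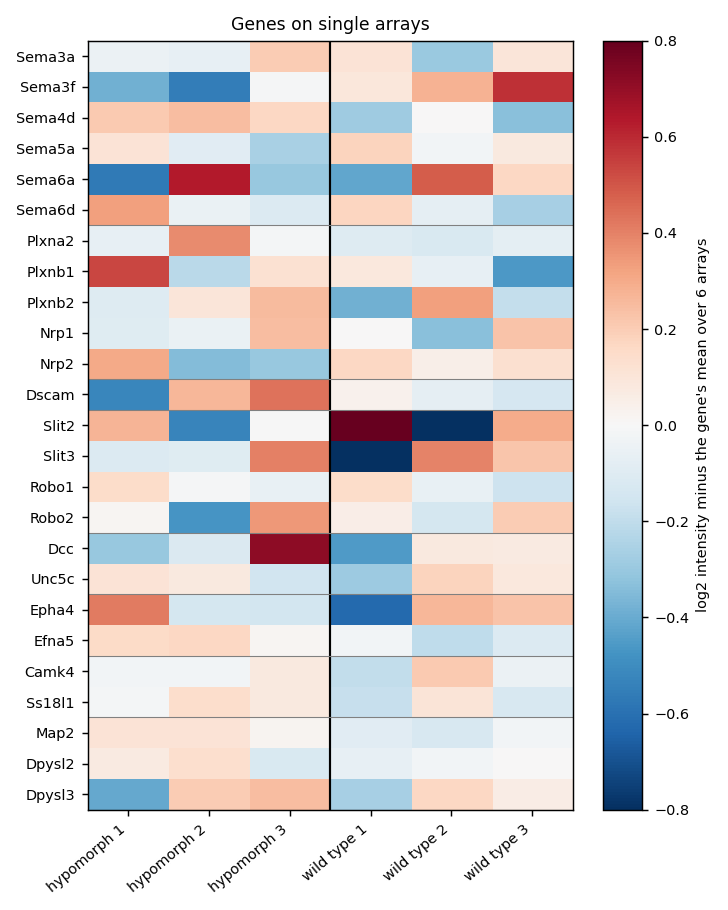
Log2 intensity of 25 measured genes (rows, probe with the highest mean) on the 6 arrays (columns, hypomorph left of the line), minus the gene's mean over all arrays; red is above and blue below the mean, and the colours end at 0.8 in either direction. Sema3f and Sema4d separate the groups in opposite directions, while Slit2 and Slit3 reach the end of the colours on wild-type arrays.

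The calcium-dependent regulators of dendrite growth were close between groups on their probes with the highest means. Camk4, a calcium-dependent kinase that acts on CREB and is abundant in granule cells, read 13.86, 13.86 and 13.96 in hypomorphs, against 13.68, 14.09 and 13.84 in wild type. All hypomorph values lay within the wild-type range. The difference was 0.02 (SE 0.15, 95% interval -0.33 to 0.37), or -0.01 with median scaling, and its other probes differed by 0.22 (SE 0.23) and 0.24 (SE 0.27). Ss18l1, the calcium-responsive transactivator CREST of dendrite growth, differed by 0.14 (SE 0.14), 0.14 (SE 0.23) and 0.24 (SE 0.26) on its 3 probes.

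Map2, the microtubule-associated protein of dendrites, had higher means in the hypomorph on all 4 tested probes. Probe ILMN_1226553 read 7.18, 7.10 and 7.0 in hypomorphs, against 6.69, 6.75 and 6.55 in wild type. The groups did not overlap, and the difference was 0.43 (SE 0.13, 1.35-fold, unadjusted p 0.0125, adjusted p 0.755). Probe ILMN_2709782 read 7.11, 7.67 and 6.97 in hypomorphs, against 6.67, 6.58 and 6.80 in wild type. These groups did not overlap either, with hypomorph 2 the highest, and the difference was 0.56 (SE 0.20, adjusted p = 0.868), or 0.35 without hypomorph 2. The probe with the highest mean, ILMN_3137552, read 12.90, 12.90 and 12.81 in hypomorphs, against 12.70, 12.66 and 12.77 in wild type. There the groups again did not overlap but lay close together, and the difference was 0.16 (SE 0.12, 95% interval -0.13 to 0.45, adjusted p = 0.999). The fourth probe read 7.66, 9.46 and 7.49 in hypomorphs, against 7.03, 7.78 and 7.59 in wild type, with hypomorph 2 far above the others and a difference of 0.74 (SE 0.51). With the authors' processed values the differences of ILMN_1226553 and ILMN_2709782 were 0.21 and 0.29. Another 5 probes of Map2 were not above background on any array.

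Dpysl2, also called CRMP2, a tubulin-binding protein that relays Sema3a signals, had an unadjusted p under 0.05 on 1 of 3 tested probes. Probe ILMN_1240571 read 6.34, 6.47 and 6.05 in hypomorphs, against 5.94, 5.72 and 5.80 in wild type, with no overlap. The wild-type values lay close to the dimmest signals called above background on those arrays, 5.78, 5.62 and 5.72. The difference on this probe was 0.47 (SE 0.16, 1.38-fold, adjusted p = 0.825), or 0.17 with the authors' processed values. The probe with the highest mean read 14.34, 14.41 and 14.15 in hypomorphs, against 14.20, 14.25 and 14.27 in wild type. Hypomorph 3 was the lowest array there, and the difference was 0.06 (SE 0.13, 95% interval -0.25 to 0.37), or -0.02 with array weights. The remaining probe differed by 0.03 (SE 0.23), as did Dpysl3, a related protein of growth cones (SE 0.22), which stood at -0.08 with median scaling.

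Probes of 1 gene were thus not always alike. Of 12 genes with more than 1 tested probe, 7 had means that differed in the same direction on all of them (Camk4, Dpysl2, Dscam, Map2, Sema3f, Sema5a and Ss18l1) and 5 in both directions. The groups did not overlap on 12 of the 51 probes, or 23.5%, where 10.5% of all tested probes did not overlap. Of these, 8 were higher in the hypomorph, against 5.5% of all probes, and 4 lower, against 5.02%. By the probe with the highest mean the groups did not overlap for 5 of 27 genes, or 18.5%, against 11% of all tested genes: Sema3f was lower, against 5.55% of all genes, and Sema4d, Plxna2, Efna5 and Map2 were higher, against 5.5%.

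**Figure D5:**
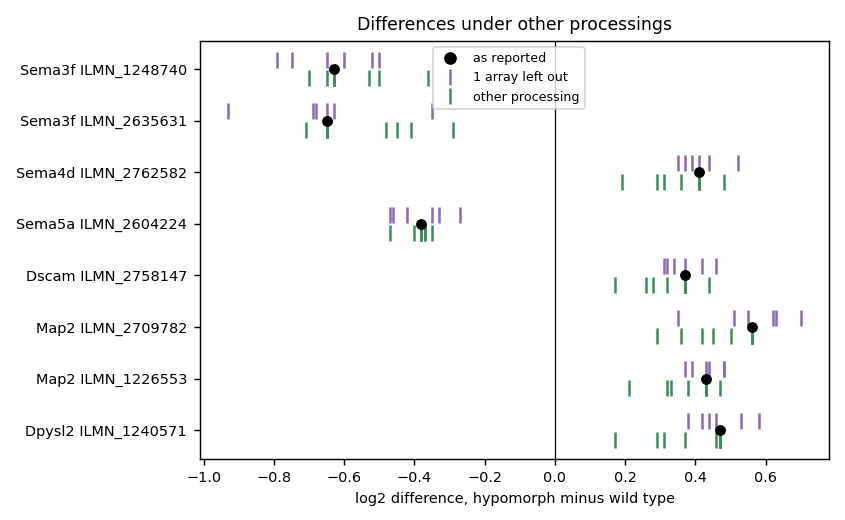
Difference between hypomorph and wild type (log2, horizontal axis) of the 8 probes with an unadjusted p under 0.05: as reported (black points), with 1 array left out (purple ticks) and with other processings of the 6 arrays (green ticks). No tick crosses 0, and the smallest differences include 0.17 for Dscam and Dpysl2. The groups do not overlap on these probes, so leaving out 1 array could not change a sign.

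Of 121 other genes of the same pathways, 94 were measured and 0 passed the adjusted threshold in limma, as over all probes. On the probe with the highest mean 51 had higher and 43 lower values, and the median difference was 0.02. With median scaling 40 were higher and 54 lower, where 33.3% of all tested genes were higher. On the probe with the highest mean, unadjusted p-values under 0.05 came from 3 genes, or 3.19%, against 5.23% of all tested genes. Of these, 2 were higher (2.13%, against 2.23% of all tested genes) and 1 lower (1.06%, against 3%). Sema3b, a secreted semaphorin, read 5.83, 5.85 and 5.69 in hypomorphs, against 6.07, 6.33 and 6.16 in wild type, a difference of -0.39 (SE 0.14, adjusted p = 0.834). Mef2d, an activity-regulated transcription factor, read 7.05, 6.68 and 6.73 in hypomorphs, against 6.33, 6.45 and 6.56 in wild type, a difference of 0.38 (SE 0.15, adjusted p = 0.921). Rgmb, a repulsive guidance molecule, differed by 0.33 (SE 0.14, adjusted p = 0.934). The groups did not overlap for any of the 3 genes, which were chosen by their p. Over the list the groups did not overlap for 8 of 94 genes, or 8.51%, against 11% of all tested genes. With the authors' processed values the differences were -0.14 for Sema3b, 0.17 for Mef2d and 0.15 for Rgmb. Other probes of the list were not in that count. Map1b probe ILMN_2932081 also had an unadjusted p under 0.05 in limma, with a difference of 0.67 (SE 0.21, adjusted p = 0.774). The Map1b probe with the highest mean differed by 0.10 (SE 0.14). Cdc20 probe ILMN_2612206 had such a p too (0.46, SE 0.19, adjusted p = 0.930), as did 5.31% of all tested probes.

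The next genes by p differed by -0.37 (SE 0.16) for Plxnc1, a semaphorin receptor, and 0.42 (SE 0.18) for Cdc20, a ubiquitin ligase activator of dendrite growth. Nrcam, an adhesion molecule, differed by -0.25 (SE 0.12) and Epha7 by 0.23 (SE 0.13), both without overlap. Other tested probes went elsewhere for Nrcam, at 0.59 (SE 0.91), Epha7, at 0.03 and -0.08 (SE 0.29 and 0.32), and Plxnc1, at 0.04 (SE 0.21). Those of Cdc20 were higher too, at 0.46 (SE 0.19) and 0.20 (SE 0.22), as was that of Rgmb, at 0.65 (SE 0.36). Crebbp, a coactivator of CREB, read 6.01, 8.63 and 5.97 in hypomorphs, against 5.69, 5.51 and 5.45 in wild type, where it was not above background on any array. Its hypomorph mean was at least 2.24-fold higher (measured means 6.87 and 5.55, adjusted p = 0.975), but hypomorph 2 set most of it, and without that array the bound was at least 1.21-fold. Stmn1, a tubulin-binding protein, differed by -0.33 (SE 0.19), Efna1 by 0.38 (SE 0.23) and the transcription factor Creb1 by 0.25 (SE 0.16).

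Markers of the cells in the sample were read beside these genes. Of all tested genes 48.1% had higher values in the hypomorph, or 33.3% with median scaling and 49% with array weights. Granule cell markers had 6 of 8 measured, among them Gabra6, Neurod1 and Zic1, with 3 higher and 3 lower in the hypomorph, or 1 higher with median scaling and 4 with array weights. Gad1 and Pvalb, markers of interneurons and Golgi cells, differed by -0.13 (SE 0.18) and 0.04 (SE 0.13). Pcp2 and Ppp1r17 were the measured Purkinje cell markers of a list of 7, with 1 higher and 1 lower. Calb1, Car8 and Pcp4 did not pass the filter. Of the forebrain markers Emx1, Neurod6 and Tbr1 did not pass the filter either. Oligodendrocyte markers had lower values in the hypomorph in 5 of 5 measured genes, or 4 of 5 with array weights. These markers differed by -0.22 (Mobp, SE 0.28) to -0.02 (Mbp, SE 0.14). Their summed linear intensity ran from 92540 to 110400 on hypomorph arrays, against 104000 to 116700 on wild-type arrays, with overlap, and no marker of that list had an unadjusted p under 0.05. Microglia markers had higher values in 4 of 5, or 3 with median scaling or array weights, with sums of 1383 to 1795 in hypomorphs, against 1080 to 1514 in wild type. Endothelial markers had higher values in 1 of 4, or 0 with median scaling, with sums of 4041 to 4971 in hypomorphs, against 4665 to 5251 in wild type. Slco1c1, a transporter of brain endothelium, was the only marker of these lists with an unadjusted p under 0.05. It differed by -0.35 (SE 0.14, adjusted p = 0.900), without overlap. Of all tested genes 5.23% had such a p, and for 11% the groups did not overlap. Bergmann glia and astrocyte markers had lower values in 5 of 6, or 6 with median scaling, with sums of 72050 to 86150 in hypomorphs, against 73410 to 90610 in wild type. Meningeal markers had lower values in 3 of 4, or 4 with median scaling, with sums of 11670 to 16050 in hypomorphs, against 12200 to 17860 in wild type. Ttr, a choroid plexus marker, read 9.47, 10.1 and 9.45 in hypomorphs, against 11.04, 8.31 and 10.05 in wild type. It spread widely and differed by -0.13 (SE 0.62). Hoxb5, a marker of brainstem and spinal cord, differed by -0.18 (SE 0.20). The part of these lists in the differences of Sema3f, Sema4d, Sema5a, Dscam, Map2 and Dpysl2 was not tested.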

How the data were processed

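RNA was labelled and hybridised to Illumina bead arrays. The submitters' processing notes name BeadStudio; the version and the treatment of background are not stated in the sources used here. Values deposited by the authors were non-normalized intensity values and a detection p-value for each of 45281 probes and array. A second table of intensity values, processed by the authors, held medians of 161.3 to 161.5, with a rank correlation of 1 to the first table on each array. Its values lay above those of the first table by medians of 140.6 to 142.8 units, which shrinks log2 differences of dim probes. How it was normalized is not stated.

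Intensities were background-corrected from the detection p-values, given an offset of 16, quantile-normalized and put on the log2 scale (the steps of neqc, limma 3.58.1, R 4.3.3). Normalization would hide a shift of most transcripts, and the offset shrinks folds of dim probes. Probes above background on at least 3 of 6 arrays were tested with lmFit and eBayes without a block, with Benjamini-Hochberg adjustment over all 19515. Between 41.2% and 44.5% of probes were above background per array. Symbols were those of the platform annotation, where 34885 probes had 1 symbol, 18 several and 10378 none, and 2778 tested probes were unnamed. The test was checked on simulated data whose arrays varied independently, so that check does not cover arrays that vary in pairs. With 3 against 3 arrays an exact permutation test of a single value cannot give a two-sided p under 0.1, so none is given.

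Described with every array's value were genes with an unadjusted p under 0.05 on a probe, genes whose groups did not overlap on the probe with the highest mean, and the gene with the highest such mean in each family. Genes shown for their spread, and those few array values given for other probes, were chosen after their values were seen. Of the other pathway genes the 12 with the smallest p are named, except 1. Genes of 1 effector family are included in the counts but their values are not reported here. The genes and lists were chosen with earlier results of these data known. The alternatives tried were array weights, an intensity trend with robust moderation, a filter on all 6 arrays or none, an offset of 50, median scaling, leaving the background in, the authors' processed values, the mean over probes, a replicate block, and leaving out each array.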

Additional observations from a re-analysis of the deposited data

How the results depend on the processing

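The 3 arrays per group limit every value, and signals near background limit the small differences of dim probes. Leaving out arrays kept the normalised values and tested probes of all 6. Probes past the adjusted threshold numbered 0 as reported, also with median scaling and without a filter. They numbered 2 with a replicate block, 5 without background correction, 5 with an offset of 50, 8 with the authors' processed values, 3 with the stricter filter, 8 with an intensity trend and robust moderation, 13 with array weights, and from 0 to 2 with 1 array left out (1 without hypomorph 2, 2 without wild type 3). None of the 8 guidance and dendrite probes passed under these settings, and their lowest adjusted p was 0.235, for Sema4d with array weights.

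The count of 8 guidance and dendrite probes was 4 with the authors' processed values (5.03% of all probes), 4 with the intensity trend (4.86%), 10 with array weights (11.9%), 10 without a filter (5.08%), and 1 to 7 with 1 array left out (4.08% to 7.18%). With the other settings it was 6 to 9. The median difference over the genes ran from -0.01 to 0.11 with 1 array left out. The 3 other pathway genes, beside 5.23% of all genes, numbered 7 with a replicate block (8.79% of all genes), 0 without background correction (5.18%), 0 with an offset of 50 (5.22%), 1 with the authors' values (5.55%), 7 of 114 without a filter (5.71%), 5 of 82 with the stricter filter (5.13%), 1 with the intensity trend (5.27%) and 8 with array weights (11.2%). With 1 array left out they ran from 0 without wild type 3 (4.03%) to 6 without hypomorph 1 (5.8%) or hypomorph 2 (4.02%).

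The labels do not say that array numbers mark the littermate pairs. Deviations from the group means correlated at 0.44, 0.40 and 0.06 between same-numbered arrays, and each array correlated best with its own number, a hint from the data and not from the design. The replicate block gave 9 guidance and dendrite probes with an unadjusted p under 0.05, beside 9.31% of all probes, against 5.31% without it.

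The differences of several genes near 0 changed sign. The median over all tested genes was -0.08 with median scaling. Under it the differences were -0.01 for Camk4, -0.08 for Dpysl3, -0.03 for Nrp1, -0.05 for Robo1, -0.04 for Sema3a and -0.06 for Unc5c. With array weights they were -0.02 for Dpysl2, -0.07 for Epha4, -0.01 for Nrp1 and -0.07 for Unc5c. The mean over probes gave -0.05 for Nrp1 and 0.17 for Nrcam. With 1 array left out the range was -0.07 to 0.13 for Camk4, -0.11 to 0.40 for Dcc, -0.10 to 0.24 for Dpysl3, -0.07 to 0.41 for Dscam and -0.21 to 0.24 for Epha4. It was -0.08 to 0.20 for Nrp1, -0.02 to 0.14 for Robo1, -0.27 to 0.14 for Robo2, -0.07 to 0.13 for Sema3a and -0.51 to 0.09 for Sema6a. It was -0.03 to 0.22 for Sema6d, -0.66 to 0.21 for Slit2, -0.24 to 0.36 for Slit3 and -0.12 to 0.11 for Unc5c. Of the 45 probes followed through the settings, Sp4 apart and a few not reported here included, 670 values kept their sign and 39 did not; the cause was not tested. The difference moved by over 1.5 times or changed sign for 31 of the 45 with some array left out, and for 18 with median scaling.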
